A study of Saccharomyces cerevisiae with 12 samples.

Results

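Calling cards mark where a transcription factor has been. The factor is fused to Sir4, a protein that draws the Ty5 retrotransposon to chromatin, and each new Ty5 insertion, or hop, is left as a mark near a place where the fusion sat. Insertions were mapped in Saccharomyces cerevisiae for 12 fusions or strains, and the values described here are those of the genes for the sugar kinases HXK1, HXK2, GLK1 and EMI2. A member was represented by the intergenic region that ends at its start, that is, a region whose left gene is the member on the Crick strand or whose right gene is the member on the Watson strand. Of the 4 genes, 3 had such a region among the 4532 in the tables, namely HXK2, GLK1 and EMI2. HXK1 had none, since the last region given for chromosome 6 was RPN12-HXK1, which lies beyond the end of the gene and not before its start.

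Hexokinases and glucokinases put a phosphate on glucose as it enters the cell, the first step of glycolysis. In budding yeast, Hxk2 is the main enzyme on glucose and also takes part in glucose repression, together with the repressor Mig1. Hxk1 is its paralog and, like the glucokinase Glk1, is made mainly when glucose is scarce, while Emi2 is the paralog of Glk1. Gcr1 and its partner Gcr2, and the basic helix-loop-helix (bHLH) protein Tye7, are known activators of glycolytic genes. Cbf1 is a bHLH leucine zipper (ZIP) protein of centromeres and sulfur metabolism, Cst6 is a basic leucine zipper protein, and NPAS2 is a mammalian bHLH protein of the circadian clock.

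Each group was 1 library, grown from a single clone, so every test below compares libraries and not conditions. All strains lacked SIR4. The Gcr1, Gcr2 and Cst6 fusions were in strains with no other deletion named, as was TEF1p-Tye7, which is Tye7 with the TEF1 promoter in its title. TEF1p-Tye7 gcr2D also lacked GCR2, and the Tye7 library came from a strain that also lacked TYE7. CBF1 was deleted in the strains for full-length Cbf1, for Cbf1 bHLH-ZIP, for Cbf1 bHLH (the same domain without the zipper), for Cbf1 bHLH-ZIP with the basic region of Tye7, for NPAS2 bHLH and for NPAS2 bHLH with the Cbf1 ZIP. The strain was BY4741 throughout, apart from BY4742 for the form with the Tye7 basic region. Cells spent 3 days on galactose, during which Ty5 is induced, then 2 days on rich medium (YPD) and 3 days on medium without histidine and with 5-FOA, so that Ty5 was induced on galactose and not on glucose.

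The libraries held 3341 to 54385 insertions, of which 61.8% to 78.1% lay in the intergenic regions. A share is the percentage of a library's intergenic insertions that fell in a region. Each table also carries a background set of insertions, a larger one of 66271 intergenic insertions for 9 libraries and a smaller one of 53808 for Gcr1, Gcr2 and Cst6. The comparisons within each of these sets share their background and are not independent. A region was called when the two-sided Fisher's exact test gave an adjusted p (Benjamini-Hochberg over all regions tested in that library) under 0.05 and the ratio of shares, with 1 insertion added to each count, was at least 2 in either direction. Printed ratios are of raw shares with exact 95% intervals, which cover no more than counting error. Ranks by ratio among all regions tested instead use the ratio with 1 insertion added to each count.

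The region upstream of GLK1, PDI1-GLK1, spanned positions 50221 to 50838 of chromosome 3, or 618 bp. It is divergent: PDI1, for protein disulfide isomerase of the endoplasmic reticulum, starts at its other end. The region upstream of EMI2, EMI2-GRH1, spanned 1476469 to 1477232 of chromosome 4 (764 bp) and is divergent with GRH1, for an acetylated protein of the early secretory pathway. An insertion in either region cannot be assigned to 1 of its 2 genes. FZF1-HXK2 spanned 23203 to 23935 of chromosome 7 (733 bp), and here FZF1, for a sulfite resistance factor, ends where the region begins, so HXK2 is the sole gene that starts there. The positions are those of the deposited tables, for which no source used here names a genome build.

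GLK1 was the member with the most insertions. Its region was called higher than the background in 8 of 12 libraries, with the highest shares in the libraries of Cbf1 and its bHLH-ZIP forms. Full-length Cbf1 put 195 of its 27141 intergenic insertions there, a share of 0.718% (0.621% to 0.826%), against 32 of 66271 or 0.0483% in the background. Cbf1 bHLH-ZIP had 84 insertions and the highest GLK1 share of the 12 libraries at 1.05% (0.835% to 1.29%). The form with the Tye7 basic region had 46 insertions and a share of 0.636% (0.466% to 0.847%).

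Over the background these shares were 14.9-fold for Cbf1 (10.2 to 22.4; exact test, adjusted p 2.48e-69), 21.7-fold for Cbf1 bHLH-ZIP (14.3 to 33.7; adjusted p 5.03e-53) and 13.2-fold for the form with the Tye7 basic region (8.21 to 21.4; adjusted p 1.57e-24). Of all regions tested, 7.37% were called higher in Cbf1, 4.2% in Cbf1 bHLH-ZIP and 3.44% in the form with the Tye7 basic region. Within Cbf1, the GLK1 region was 33rd by ratio among 2185 regions tested. Cbf1 bHLH, without the zipper, had 66 insertions, a share of 0.257% (0.199% to 0.327%) and a 5.32-fold ratio (3.44 to 8.39; adjusted p 1.82e-13 in the exact test), beside 2.75% of regions called higher.

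The glycolytic activators also placed insertions before GLK1. TEF1p-Tye7 had 28, a share of 0.368% and a ratio of 7.62 (4.42 to 13.1; adjusted p 9.18e-11 in the exact test). TEF1p-Tye7 gcr2D had 31, a share of 0.408% and a ratio of 8.46 (4.99 to 14.3; adjusted p 1.65e-12), which was 8th by ratio among 2059 regions tested. The regions called higher were 1.22% of those tested in TEF1p-Tye7 and 2.33% in TEF1p-Tye7 gcr2D. Against the smaller background set, where GLK1 had 29 insertions or 0.0539%, Gcr1 had 33 insertions and a ratio of 3.68 (2.16 to 6.28; adjusted p 1.91e-05 in the exact test), beside 3.4% of regions called higher. Gcr2 had 40 insertions and a ratio of 2.92 (1.77 to 4.89; adjusted p 0.000498), beside 3.1%, and was not called without its run 1, which held 24 of the 40 (adjusted p 0.0955).

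In the other 4 libraries GLK1 was not called higher. Tye7 had 18 insertions, a share of 0.113% and a ratio of 2.33 (1.23 to 4.28), with an adjusted p of 0.372 in the exact test. NPAS2 bHLH had 7 of 2415 insertions, a ratio of 6.0 with a wide interval of 2.24 to 13.8, and an adjusted p of 0.253. Both libraries had few called regions at all, 0.767% of those tested in Tye7 and 0.0496% in NPAS2 bHLH. NPAS2 bHLH with the Cbf1 ZIP had 1 insertion among 2859, beside 2.66% of regions called higher. Cst6 had 6 insertions and a share of 0.0159%, 3.39-fold below the background (1.38 to 10.0; exact test, adjusted p 0.00798). That library was called lower at 52.5% of the regions tested, so a lower call there was the commoner outcome, and it was lost without run 3 (adjusted p 0.232).

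**Figure D1:**
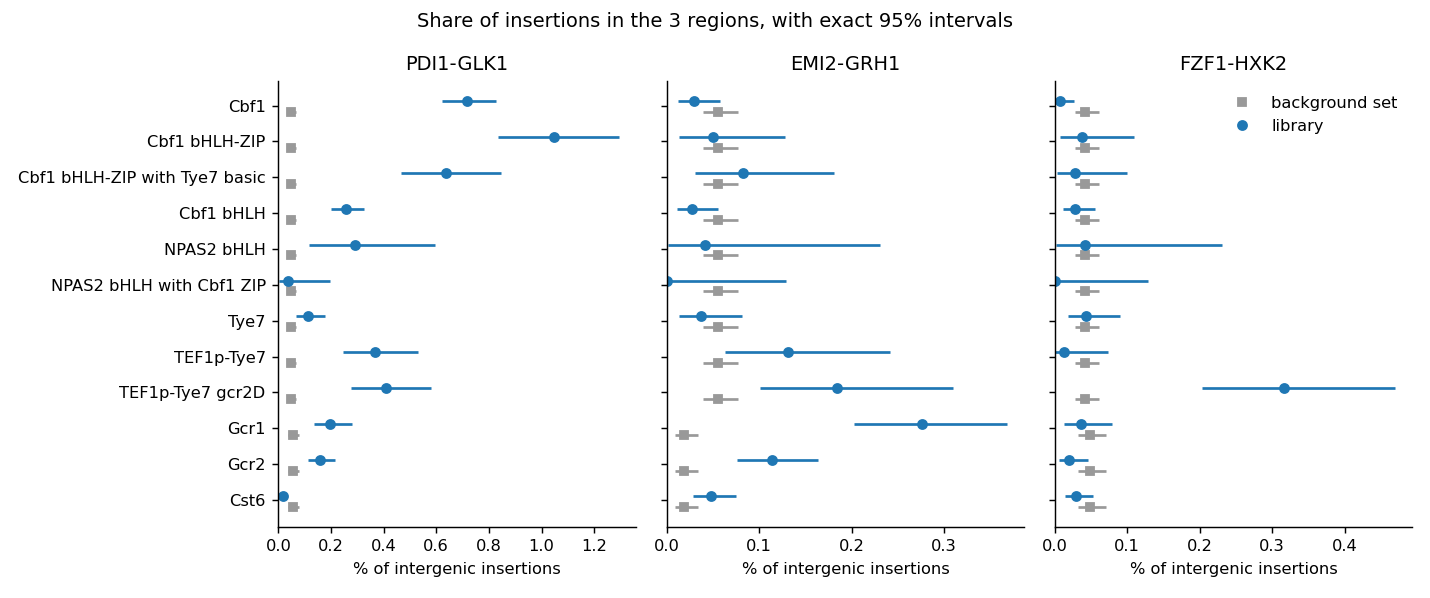
Percentage of intergenic insertions (horizontal axis) in the regions upstream of GLK1, EMI2 and HXK2 for each of the 12 libraries, each panel on its own scale. Blue points are libraries, grey squares the background set used with that library, and lines are exact 95% intervals; GLK1 stood highest in Cbf1 bHLH-ZIP at 1.05%, EMI2 in Gcr1 at 0.276% and HXK2 in TEF1p-Tye7 gcr2D at 0.316%.

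EMI2, the paralog of GLK1, had most insertions from the Gcr1 fusion. Gcr1 placed 46 of 16658 insertions there, a share of 0.276% (0.202% to 0.368%), and Gcr2 placed 29 of 25378, or 0.114% (0.0765% to 0.164%). Their background held 10 insertions, or 0.0186%. The ratios were 14.9 for Gcr1 (7.40 to 33.0; exact test, adjusted p 2.27e-18) and 6.15 for Gcr2 (2.91 to 14.1; adjusted p 4.03e-06). By ratio EMI2 was 20th of 1796 regions tested in Gcr1 and 24th of 1933 in Gcr2. Of these regions, 3.4% were called higher in Gcr1 and 3.1% in Gcr2.

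The background sets held different counts before EMI2. The larger set held 37 insertions there, a share of 0.0558%, which was 3.00-fold the share in the smaller set (1.46 to 6.77). That difference was not called (exact test, adjusted p 0.132), and 0.423% of regions were called between the sets. Against the larger set the log2 ratio at EMI2 was 2.30 in Gcr1, still called, and 1.04 in Gcr2, not called (adjusted p 0.0604). For HXK2 and GLK1 the ratios of larger over smaller set were 0.874 (0.494 to 1.55) and 0.896 (0.525 to 1.54).

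Against the larger set, TEF1p-Tye7 gcr2D was called at EMI2 with 14 insertions and a share of 0.184%. The ratio was 3.30 (1.65 to 6.26; adjusted p 0.0225 in the exact test), beside 2.33% of regions called higher. This call was lost without run 2 of that library (adjusted p 0.0923) or without run 3 (adjusted p 0.684), where a run is a sorted block within the list of insertions that the labels do not name. It was also lost when at least 5 reads were required (adjusted p 0.0639) and when insertions within 5 bp were merged (adjusted p 0.141). TEF1p-Tye7 had 10 insertions, a share of 0.131% and a ratio of 2.35 (1.04 to 4.83), not called at an adjusted p of 0.699. Cst6 was called at EMI2 with 18 insertions, a share of 0.0476% and a ratio of 2.56 (1.12 to 6.22; adjusted p 0.0340), beside 7.81% of regions called higher. The Cst6 call was lost when any of its 3 runs was left out, and with the larger background set its log2 ratio was -0.19.

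The other libraries had few insertions before EMI2 and none was called. Cbf1 had 8, a ratio of 0.528 (0.212 to 1.15), and Cbf1 bHLH had 7, a ratio of 0.488 (0.184 to 1.11). Cbf1 bHLH-ZIP had 4 and the form with the Tye7 basic region 6, with ratios of 0.892 and 1.49. Tye7 also had 6, a ratio of 0.672 (0.232 to 1.61). NPAS2 bHLH had 1, and NPAS2 bHLH with the Cbf1 ZIP had 0 of 2859, which allows a share of up to 0.105% (3 insertions).

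GLK1 and EMI2, though paralogs, led in different libraries. The odds of GLK1 over EMI2 in a library, divided by the same odds in its background set, were 27.6 in Cbf1 (11.4 to 75.2), 23.7 in Cbf1 bHLH-ZIP (7.66 to 99), 10.7 in Cbf1 bHLH (4.13 to 31.7) and 8.70 in the form with the Tye7 basic region (3.15 to 28.3). In the Tye7 libraries they were 3.42 in Tye7 (1.13 to 11.9), 3.20 in TEF1p-Tye7 (1.27 to 8.59) and 2.54 in TEF1p-Tye7 gcr2D (1.09 to 6.13). The odds favoured EMI2 in Gcr1 by 3.99 (1.62 to 10.5) and in Cst6 by 8.35 (2.38 to 33.7), while the interval for Gcr2, 2.09 in favour of EMI2, ran from 0.828 to 5.59. These values depend on the background set, as exchanging the sets, a step chosen after seeing the data, showed. With the larger set the odds in favour of EMI2 were 1.20 in Gcr1 (0.597 to 2.43) and 2.57 in Cst6 (0.846 to 8.90), and Gcr2 turned to favour GLK1 by 1.59 (0.772 to 3.30). With the smaller set Cbf1 still favoured GLK1 by 8.29 (2.70 to 26.4) and Cbf1 bHLH-ZIP by 7.11 (1.87 to 33.5), while Cbf1 bHLH was at 3.21 (0.992 to 11) and the form with the Tye7 basic region at 2.61 (0.765 to 9.76). The Tye7 libraries then lay near even odds, at 1.03 in Tye7 (0.281 to 4.09), 0.966 in TEF1p-Tye7 (0.307 to 3.04) and 0.766 in TEF1p-Tye7 gcr2D (0.260 to 2.20). The ratio was a description and carries no test, and no such ratio could be formed for HXK1 and HXK2.

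HXK2, the main hexokinase of cells on glucose, was called higher in a single library. TEF1p-Tye7 gcr2D held 24 insertions before it, a share of 0.316% (0.203% to 0.470%) against 28 of 66271 or 0.0423% in the background. The ratio was 7.48 (4.15 to 13.4; exact test, adjusted p 6.49e-09), and HXK2 was 13th by ratio among the 2059 regions tested in that library. Of those regions, 2.33% were called higher. In the other libraries, 0.0496% (NPAS2 bHLH) to 7.81% (Cst6) of the regions tested were called higher. The 3 runs of TEF1p-Tye7 gcr2D held 9, 7 and 8 of the 24 insertions, with shares of 0.525%, 0.225% and 0.290%, and all 24 were at distinct positions. Of the 24 insertions, 16 were supported by at least 5 reads.

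In the other libraries HXK2 was not called higher. TEF1p-Tye7 had 1 insertion, Tye7 had 7 with a ratio of 1.04 (0.382 to 2.43), and Gcr1 and Gcr2 had 6 and 5 with ratios of 0.745 (0.251 to 1.85) and 0.408 (0.122 to 1.08). Cst6 had 11, a ratio of 0.603 (0.269 to 1.26). The 3 altered forms of Cbf1 had 2 to 7 insertions, and none of these libraries was called. Cbf1 had 2 insertions of 27141, a ratio of 0.174 (0.0201 to 0.692), and was called lower (exact test, adjusted p 0.0167), as were 31.7% of the regions tested in that library. That call was lost without run 2 (adjusted p 0.0568) or run 3 (adjusted p 0.0803). NPAS2 bHLH had 1 insertion and NPAS2 bHLH with the Cbf1 ZIP had 0, at depths where a share of up to 0.105% is allowed by a count of 0 in the latter.

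**Figure D2:**
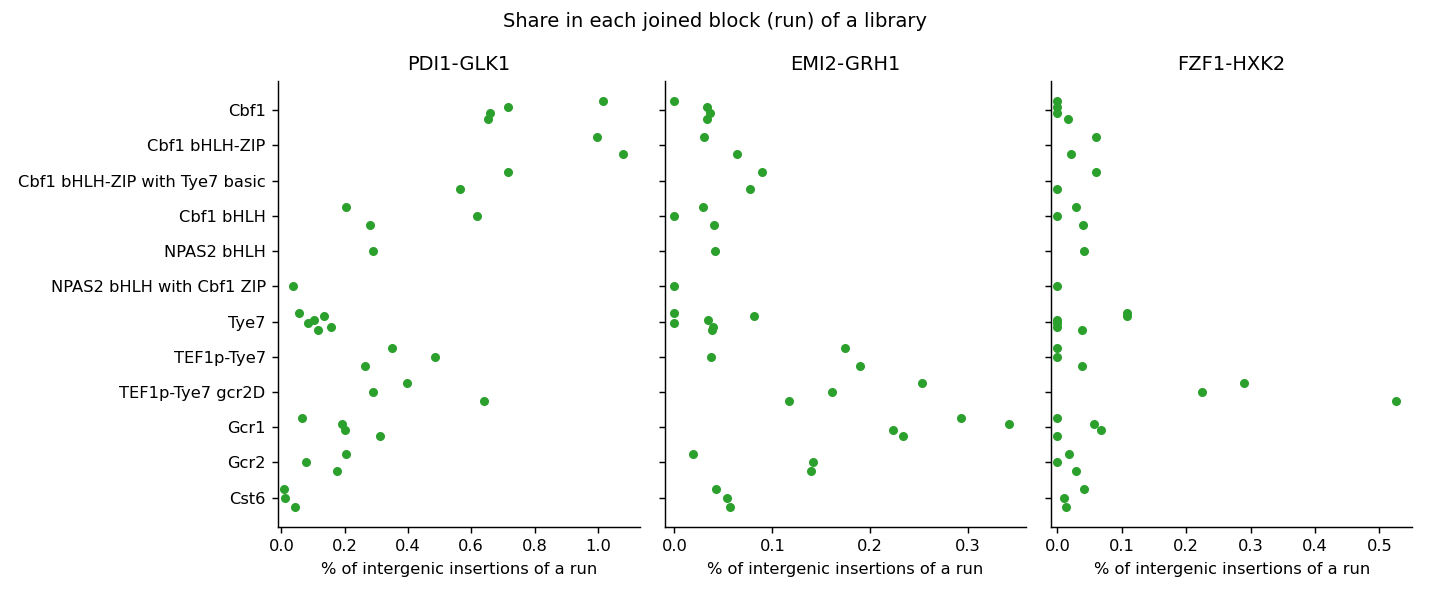
Percentage of intergenic insertions of each run (horizontal axis) in the 3 regions, with 1 point for each run of a library; runs are blocks of the deposited lists and not replicates. The 3 runs of TEF1p-Tye7 gcr2D lay at 0.225% to 0.525% for HXK2. The highest run of the other libraries was 0.108% in Tye7. Intervals overlapped between run 2 of TEF1p-Tye7 gcr2D (0.0904% to 0.463%) and run 5 of Tye7 (0.0294% to 0.276%).

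Libraries were compared directly in 8 pairs, each tested over regions where the pair together had 10 insertions or more. Tye7 against Cbf1 and Gcr1 against Gcr2 are pairs of full-length factors, and the others differ by a named change. Tye7 and Cbf1 are both bHLH proteins, and the pair asks where they part. The Tye7 strain lacked TYE7 and the Cbf1 strain lacked CBF1, so the factor and the deletion cannot be told apart. GLK1 held 0.113% of Tye7 insertions and 0.718% of Cbf1 insertions, a share 6.39-fold lower in Tye7 (3.94 to 11; exact test, adjusted p 1.42e-20), while 19.9% of regions tested were lower. EMI2 had 6 and 8 insertions, a ratio of Tye7 over Cbf1 of 1.27 (0.364 to 4.18; adjusted p 0.843). HXK2 had 7 and 2, too few for the test. With insertions merged within 5 bp GLK1 was not called in this pair (log2 ratio -0.61, adjusted p 0.568). Merging takes most from the densest regions by construction, and left 18 of 195 insertions in Cbf1 and 13 of 18 in Tye7. The loss therefore cannot show whether the call was fragile, and the same limit applies to the merged results of the pairs below.

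The GLK1 share was higher with the TEF1 promoter. TEF1p-Tye7 had 28 insertions and Tye7 18, a ratio of 3.27 (1.75 to 6.28; adjusted p 0.00279 in the exact test), beside 1.97% of regions called higher. The call was lost without run 2 of TEF1p-Tye7, which held 13 of the 28 (adjusted p 0.136), and with merged insertions (adjusted p 0.491). The pair also differs in TYE7, deleted in the Tye7 strain alone, and the promoter and the deletion cannot be told apart. EMI2 had 10 and 6 insertions, a ratio of 3.50 (1.15 to 11.7), and was not called (adjusted p 0.164).

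The libraries with and without GCR2 were compared in TEF1p-Tye7 cells. HXK2 was the sole member called, with 24 insertions against 1 (ratio 24.1, 3.92 to 989; exact test, adjusted p 1.04e-05), in a pair where 11.9% of regions were called higher. GLK1 had 31 against 28 insertions, and the interval of its ratio of 1.11 ran from 0.644 to 1.92. EMI2 had 14 against 10, a ratio of 1.40 (0.580 to 3.53; adjusted p 0.647). The differences between members were not tested. When shares were scaled outside the 10 fullest regions, the median region of this pair moved by -0.51 in log2 ratio and the split of calls from 32 higher and 16 lower to 11 and 20, while HXK2 was still called at a log2 ratio of 3.14 (adjusted p 0.000545). With insertions merged within 5 bp it was not called (log2 ratio 2.41, adjusted p 0.105).

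Gcr1 and Gcr2, which act together, differed at EMI2. The Gcr1 share was 2.42-fold that of Gcr2 (1.49 to 3.99; exact test, adjusted p 0.00340), beside 3.64% of regions called higher. Without run 3 of Gcr1 the adjusted p was 0.0624, and without run 3 of Gcr2, which held 1 of its 29 EMI2 insertions, the log2 ratio was 0.96, under the ratio needed for a call. The call was also lost with at least 5 reads (adjusted p 0.107) and with merged insertions (adjusted p 0.966). GLK1 had 33 and 40 insertions (ratio 1.26, 0.768 to 2.04) and HXK2 had 6 and 5 (ratio 1.83, 0.465 to 7.57), and neither was called.

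Cbf1 without its zipper had a lower GLK1 share than with it. Cbf1 bHLH had a GLK1 share 4.07-fold lower than Cbf1 bHLH-ZIP (2.92 to 5.71; exact test, adjusted p 9.25e-16), while 7.06% of the regions tested were called lower. The run shares were 0.205% to 0.618% in Cbf1 bHLH and 0.999% to 1.08% in Cbf1 bHLH-ZIP, where runs are blocks and not replicates. The intervals of run 2 of Cbf1 bHLH (0.360% to 0.987%) and run 2 of Cbf1 bHLH-ZIP (0.688% to 1.40%) overlapped. Run 3 of Cbf1 bHLH, with the lowest share, held 20443 of its 25688 intergenic insertions. Scaling outside the 10 fullest regions moved the median region of this pair by -0.53 in log2 ratio and the split of calls from 70 higher and 57 lower to 9 and 79. Cbf1 bHLH-ZIP over full-length Cbf1 gave a ratio of 1.46 (1.11 to 1.89; adjusted p 0.0812), which was not called, in a pair where 3.04% of regions were called in either direction.

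The Tye7 basic region gave a GLK1 share 0.608 of that of Cbf1 bHLH-ZIP (0.415 to 0.881; exact test, adjusted p 0.0279). This was below the ratio needed for a call, in a pair where 22% of regions were called in either direction and where the basic region and the strain, BY4742 or BY4741, cannot be told apart. EMI2 had 6 and 4 insertions in that pair and HXK2 had 2 and 3. In the NPAS2 pair, where 64.5% of the 62 regions tested were called in either direction, no member reached 10 insertions. GLK1 had 1 insertion with the Cbf1 ZIP and 7 without it, EMI2 and HXK2 each had 0 and 1.

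**Figure D3:**
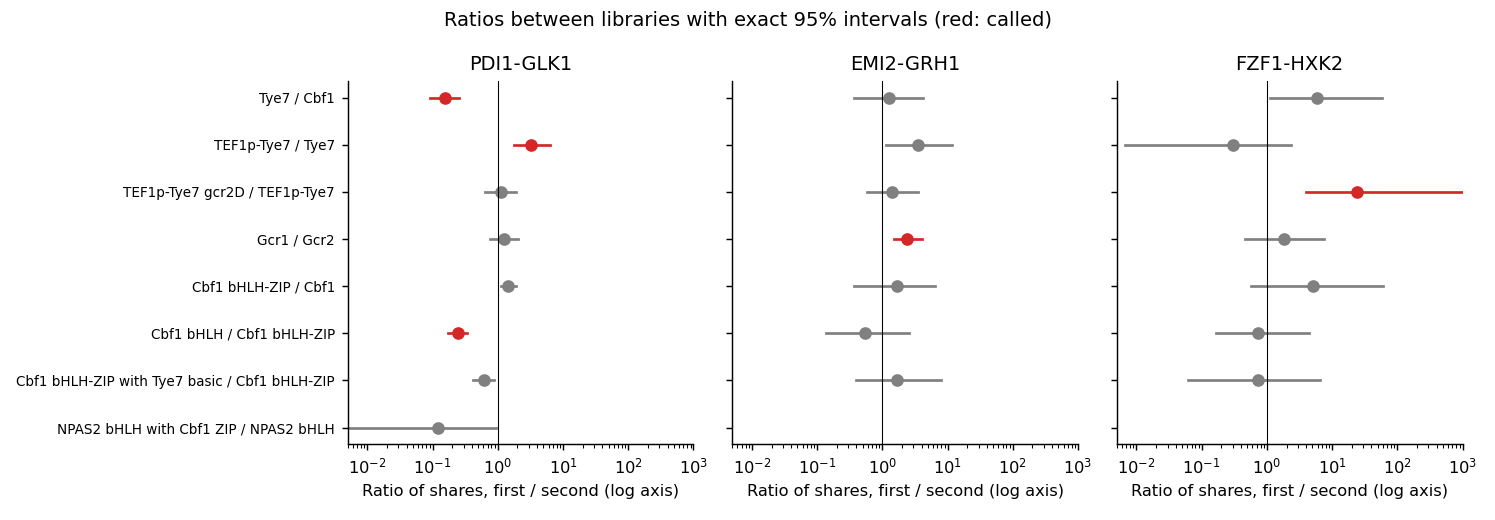
Ratio of shares, first library over second (log axis), with exact 95% intervals for GLK1, EMI2 and HXK2 in the 8 pairs; intervals that pass the axis limits are clipped, and regions with a count of 0 in the first library or under 5 insertions in the pair are not drawn. Red marks called regions: 3 for GLK1, 1 for EMI2 and 1 for HXK2.

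Where the insertions lay within the GLK1 region differed between the Cbf1 and the Tye7 libraries, as a description without a test. In Cbf1, 162 of 195 insertions (83.1%) fell in the fullest 100 bp, 253 to 352 bp before the GLK1 start, with a median distance of 293 bp. Cbf1 bHLH-ZIP placed 72 of 84 between 252 and 351 bp, and Cbf1 bHLH placed 49 of 66 between 253 and 352 bp. The form with the Tye7 basic region had its fullest stretch, 33 of 46 insertions, at 221 to 320 bp and a median of 296.5 bp. The Cbf1 forms therefore shared a place near the middle of the region, but this place was not theirs alone. In Gcr1 the fullest 100 bp was 262 to 361 bp, with 17 of 33 insertions. It was 266 to 365 bp in Gcr2 (16 of 40) and 262 to 361 bp in NPAS2 bHLH (5 of 7).

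By median distance the Tye7 libraries were nearer to GLK1 than the Cbf1 forms. TEF1p-Tye7 placed 17 of 28 insertions between 168 and 267 bp, with a median of 216 bp, and TEF1p-Tye7 gcr2D placed 19 of 31 between 163 and 262 bp, with a median of 196 bp. In the band from 100 to 199 bp lay 35.7% of the TEF1p-Tye7 insertions (18.6% to 55.9%) and 45.2% of those of TEF1p-Tye7 gcr2D (27.3% to 64.0%), against 2.56% in Cbf1 (0.838% to 5.88%). Cbf1 bHLH-ZIP had 2.38% and Cbf1 bHLH 1.52% in this band. Gcr2 had 20% (9.05% to 35.6%), Gcr1 18.2% (6.98% to 35.5%) and Tye7 22.2% (6.41% to 47.6%). The form with the Tye7 basic region had 15.2% (6.34% to 28.9%). These intervals overlapped those of both TEF1p-Tye7 libraries, so the band was not particular to Tye7. Tye7 itself was spread more widely around a median of 237 bp. Gcr1 had a median of 262 bp, with 27.3% of its 33 insertions within the 100 bp next to GLK1, and Gcr2 a median of 273 bp.

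**Figure D4:**
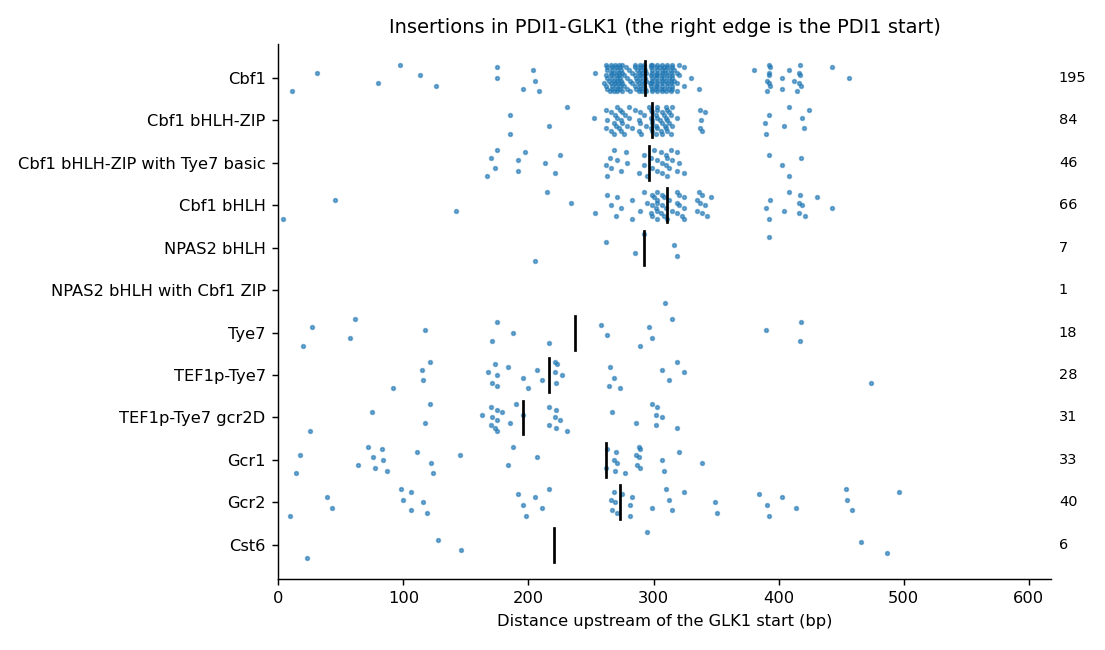
Distance of each insertion before the GLK1 start (horizontal axis, bp) in the 12 libraries; black bars are medians of libraries with at least 5 insertions, vertical scatter within a row has no meaning, and the number of insertions stands at the right. The Cbf1 forms gathered near 300 bp (Cbf1 median 293 bp) and both TEF1p-Tye7 libraries nearer the gene (medians 216 and 196 bp).

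Many of the GLK1 insertions in Cbf1 were at the same or neighbouring bases. Its 195 insertions had 78 distinct positions, and merging positions within 5 bp left 18. All insertions were then merged in this way, in the library and not in the background. GLK1 was called in Cbf1 at a log2 ratio of 1.87 (exact test, adjusted p 0.00148). It was not called in Cbf1 bHLH (log2 ratio 0.71, adjusted p 1). Merging raised the log2 ratio of the median region by 1.38 in Cbf1 and by 0.30 in Cbf1 bHLH. Regions called lower in Cbf1 went from 692 to 11. The merged ratios therefore cannot show how firm the Cbf1 call was, or a difference at GLK1 between the 2 libraries. The median GLK1 insertion in Cbf1 had 20 reads, and 150 of 195 had at least 5.

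In HXK2, 15 of the 24 insertions of TEF1p-Tye7 gcr2D lay between 212 and 311 bp before the start, and the single TEF1p-Tye7 insertion lay at 239 bp. A second group of 9 lay beyond 500 bp, nearer to FZF1. Before EMI2, Gcr1 had 23 of 46 insertions between 355 and 454 bp from the EMI2 start, with a median of 434.5 bp, and Cst6 had 11 of 18 between 452 and 551 bp. TEF1p-Tye7 had 7 of 10 between 369 and 468 bp and TEF1p-Tye7 gcr2D 8 of 14 between 365 and 464 bp, close to the stretch of Gcr1. Most of these insertions were nearer to the GRH1 start than to that of EMI2: 16 of the 46 in Gcr1 and 4 of the 18 in Cst6 lay in the EMI2 side of the region.

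**Figure D5:**
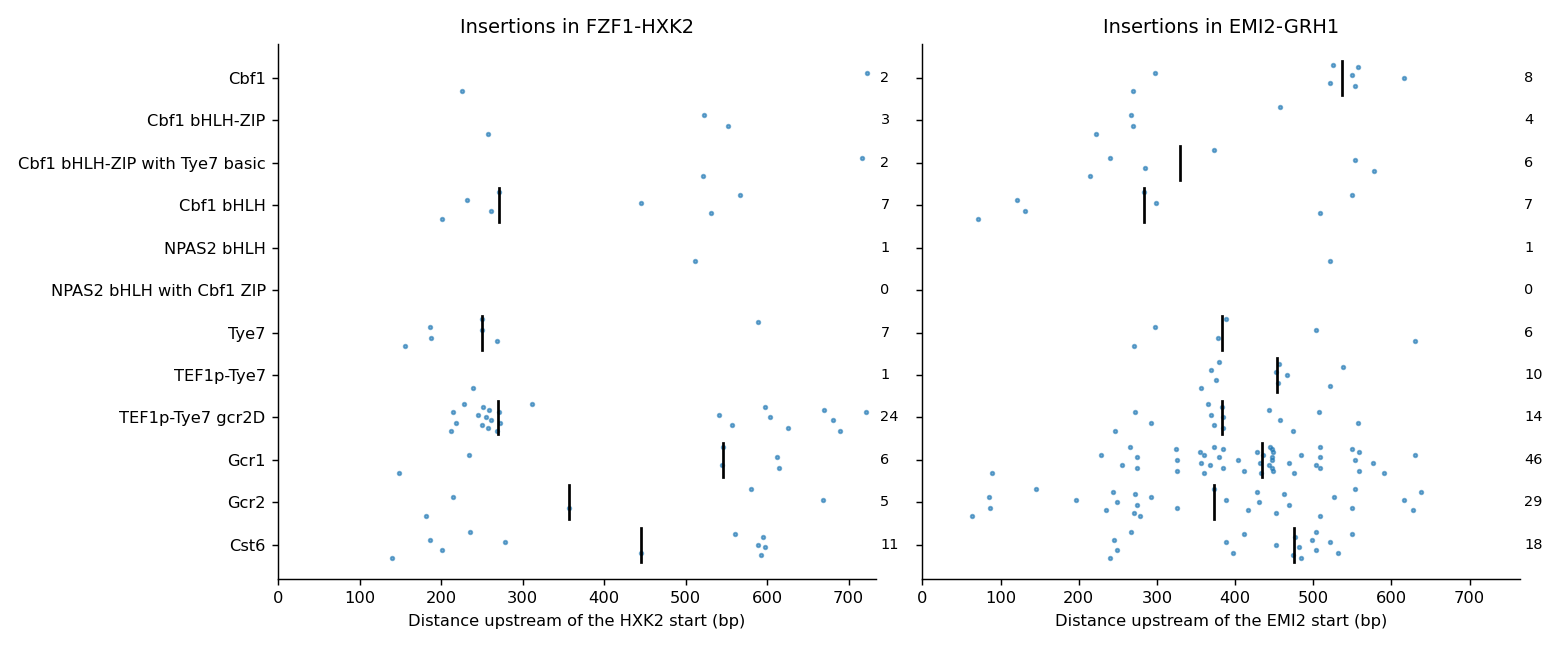
Distance of each insertion before the HXK2 start (left) and the EMI2 start (right), in bp, in the 12 libraries; black bars are medians of libraries with at least 5 insertions and numbers at the right are insertions. In TEF1p-Tye7 gcr2D 15 of 24 HXK2 insertions lay between 212 and 311 bp, and Gcr1 insertions before EMI2 had a median of 434.5 bp.

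The upstream regions held more insertions than the genes or the regions after them. Over the 12 libraries, 555 insertions fell before GLK1, 25 inside the gene and 2 in the region after it. EMI2 had 149 before, 8 inside and 1 after, and HXK2 had 69, 7 and 2. The larger background set had the same pattern, with 32, 37 and 28 insertions before GLK1, EMI2 and HXK2 and 3, 1 and 1 after them. More insertions before than after the genes was therefore not particular to the libraries. No background count was available inside the genes. HXK1 had 18 inside the gene and 5 in RPN12-HXK1, the region after it.

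HXK1 could be described only from the lists of insertions, in a window of 1000 bp before its start, which was added after the tables were found to lack the region. The start was placed from the edge of RPN12-HXK1 and the RefSeq gene length of 1458 bp, a method under which 4363 of 4406 genes with a region on either side (99%) had the RefSeq length. Shares here are of all listed insertions, and no background exists for the window, so there is no test. Gcr1 had the highest count, 24 insertions or 0.102% of its list (0.0656% to 0.152%), and 1.82% of 4446 such windows before other genes held more. Tye7 had 14 (0.0583%), with 2.77% of windows holding more, and Cbf1 bHLH had 19 (0.0544%), with 6.88% holding more. These ranks carry no measure of how much of each window lies inside genes, and the members held few insertions inside their genes.

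The remaining libraries had few insertions before HXK1. Gcr2 had 9 and Cst6 7, and Cbf1, Cbf1 bHLH-ZIP and TEF1p-Tye7 gcr2D had 5 each, with 4 in the form with the Tye7 basic region. TEF1p-Tye7 and NPAS2 bHLH had 2 each and NPAS2 bHLH with the Cbf1 ZIP had 1. At these counts the order among them cannot be read. Gcr1 thus had its highest counts among the 4 genes at EMI2 and GLK1, with HXK1 next and HXK2 last, though the HXK1 window is longer than the 3 regions.

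The later steps of glycolysis and fermentation, a list of 18 genes from PGI1 to ADH1 that each had an upstream region, were called mainly in the libraries of Gcr1, Gcr2 and Tye7. Regions called higher numbered 15 of 18 in Gcr2, where 3.1% of all regions tested were called higher, and 15 in TEF1p-Tye7 (1.22%). They numbered 14 in Gcr1 (3.4%), 13 in Tye7 (0.767%) and 6 in TEF1p-Tye7 gcr2D (2.33%). Cbf1 (7.37%), Cbf1 bHLH-ZIP (4.2%) and Cst6 (7.81%) had 2 each, and the form with the Tye7 basic region (3.44%) and Cbf1 bHLH (2.75%) 1 each. NPAS2 bHLH (0.0496%) had 0 and NPAS2 bHLH with the Cbf1 ZIP (2.66%) had 4. Regions of the list called lower numbered 9 in Cbf1, where 31.7% of all regions were, 11 in Cst6 (52.5%), 3 in Cbf1 bHLH-ZIP (2.49%), and 1 each in the form with the Tye7 basic region (0.492%) and Cbf1 bHLH (0.208%). The median log2 ratio of the list was 4.0 in TEF1p-Tye7 and 1.24 in TEF1p-Tye7 gcr2D, where the medians over all regions tested were -0.40 and -0.0034. In Gcr1 it was 4.0 and over all regions -0.89. HXK2 was called in TEF1p-Tye7 gcr2D and not in TEF1p-Tye7, while fewer list regions were called in the former.

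In the library where each member had its highest ratio, the 5 regions with the highest ratios were taken from that list and from 2 shorter ones, of 5 genes around glucose 6-phosphate and 11 of glucose repression and sensing. In Cbf1 bHLH-ZIP (GLK1) TDH2-MET3 led at 61.7 (42.5 to 92.2), a region shared by a glyceraldehyde 3-phosphate dehydrogenase gene and the sulfate assimilation gene MET3. MED8-MSI1, from the repression list, followed at 2.75 on 1 insertion (0.0524 to 34.3), then ADP1-PGK1 at 2.41, PEP8-TDH1 at 2.40 and PUP2-ENO1 at 1.22. Of these 5, TDH2-MET3 and PEP8-TDH1 were called.

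In TEF1p-Tye7 gcr2D (HXK2) PEP8-TDH1 led at 45.6 (35.8 to 58.8), with 413 insertions. PDC1-STU2 at 6.08, TDH3-PDX1 at 4.11, PUP2-ENO1 at 4.10 and TDH2-MET3 at 3.82 came next, so that both HXK2 at 7.48 and GLK1 at 8.46 had higher ratios than every list region but that of TDH1. In Gcr1 (EMI2) TDH3-PDX1 led at 47.6, followed by PGI1-TAF5 at 26.8, TDH2-MET3 at 23.3, SPC97-ENO2 at 21.1 and PUP2-ENO1 at 20.9, all above EMI2 at 14.9. These 10 regions were all called.

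Higher calls were few among genes around the fate of glucose 6-phosphate and around glucose repression, as they were among all regions tested. Of the former, 4 of 5 genes had a region (ZWF1, PGM1, PGM2 and TPS1), and the sole one called higher was ZWF1-NAR1, before the gene of glucose 6-phosphate dehydrogenase, in NPAS2 bHLH with the Cbf1 ZIP (ratio 5.22, 2.23 to 10.9; exact test, adjusted p 0.00708). Of 11 genes of glucose repression and sensing, JIP4-SNF1, before the gene of the Snf1 kinase, was called higher in TEF1p-Tye7 gcr2D with 18 insertions and a ratio of 3.02 (1.66 to 5.25; adjusted p 0.0104). No other region of this list was called higher in any library. Of all regions tested, 2.66% were called higher in NPAS2 bHLH with the Cbf1 ZIP and 2.33% in TEF1p-Tye7 gcr2D. Lower calls were more common in the libraries with many of them: 4 regions of the glucose 6-phosphate list and 5 of the repression list in Cst6, and 2 and 4 in Cbf1. Of all regions tested, 52.5% were called lower in Cst6 and 31.7% in Cbf1. Cbf1 bHLH-ZIP, with 2.49% of all regions tested called lower, had 1 lower call in each list. Gcr1, with 5.4% called lower, had 1 in the repression list.

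The regions most like each member over the 12 libraries were found by Pearson's r of log2 insertions per 10000 (plus 1), among 996 regions with at least 30 insertions, as a description over libraries that differ widely in depth. For GLK1 they were STE20-SHU1 (0.877), OYE3-DAP1 (0.870) and HOM3-PIC2 (0.848), each with its highest values in Cbf1 and its forms. For EMI2 they were MNT2-ADH4 (0.897), before an alcohol dehydrogenase gene, SOL1-ARC35 (0.832) and the region beyond the end of GPM1 (0.820), the gene of phosphoglycerate mutase. For HXK2 they were ASK1-SFK1 (0.870), DUR12-ERV15 (0.824) and PCL1-CAF40 (0.814), each highest in TEF1p-Tye7 gcr2D but with no more than 11 insertions there.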

How the data were processed

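Insertions of Ty5 were read by the authors from inverse PCR of genomic DNA; per the submitters' processing notes reads were aligned with Novoalign, and no source used here names the build or filters. The deposited files give, per library, a list of insertions with a read count each, and a table with counts of insertions per intergenic region for that library and for a background set of unstated origin. Per the file headers, the authors also gave a Poisson p-value per region and the fraction of the background in each region.

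From these, Fisher's exact tests, exact intervals (Clopper-Pearson for shares, conditional for ratios, at 95%) and Benjamini-Hochberg adjustment were computed with Python 3.11.15 and SciPy 1.17.1, over regions with at least 10 insertions per comparison. Log2 ratios had 1 insertion added to each count, which raises them in small libraries. A limit for a count of 0 is 3 insertions. Insertions recounted from the lists equalled the deposited counts in all 4532 regions of every library. The tests were checked on simulated libraries with independent insertions drawn from the background shares. That check cannot show error rates where insertions cluster, as they did before GLK1 in Cbf1. RefSeq (R64) was used for gene names and lengths. Lists have 1 to 6 joined blocks, here called runs. The members and lists were chosen with earlier results of these data known. Named were the members, the 3 regions most like each and, in the library with a member's highest ratio, the 5 list regions of highest ratio. Alternatives are given at the end. Merging within 5 bp joins chains of neighbouring insertions into 1, so it takes most from dense regions by construction.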

Additional observations from a re-analysis of the deposited data

Results flagged for a closer look

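The region tables have no region before HXK1, and so the insertions listed there enter no comparison. Within 1000 bp of its start, 9 libraries held more than the 3 insertions that a count of 0 allows, and no control set of positions exists for the window. The counts were 24 in Gcr1, 19 in Cbf1 bHLH, 14 in Tye7, 9 in Gcr2, 7 in Cst6, 5 in each of Cbf1, TEF1p-Tye7 gcr2D and Cbf1 bHLH-ZIP, and 4 in the form with the Tye7 basic region. The median window before a gene held 0 to 4 insertions, depending on the library. Of the 24 insertions in Gcr1, 20 had at least 5 reads, with a median distance of 588.5 bp from the HXK1 start.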

How the results depend on the processing

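No paired analysis was possible because each group is 1 library. Of 764 values for single members under the alternatives, 728 had the reported outcome, whether called or not called. A call was gained in 5 and lost in 30. In 1 it reversed, namely EMI2 in Cst6 with the other background set (log2 ratio -0.19, adjusted p 0.706 in the exact test). Losses and reversals could occur only where a call was reported, so the 728 does not measure how stable the calls were. The cause was not tested for any of these changes. Counts of members called that changed by more than 1.5 times are given here, where the reported count was 1 unless stated. In Cbf1 the lower count was 0 with shares of all listed insertions, outside the 10 fullest regions, with at least 5 reads and with insertions merged within 5 bp. In Cst6 the lower count was 0 outside the 10 fullest regions, with at least 5 reads and merged, and the higher count 0 with at least 5 reads, with no minimum and with the other background set. The authors' Poisson p-values adjusted over all regions changed no count of higher calls by more than 1.5 times, but adjusted over regions with at least 10 insertions, an alternative chosen after seeing the data, they raised the higher count from 0 to 1 in Tye7 and in NPAS2 bHLH (GLK1, adjusted p 0.0277 and 0.0293, against 0.0529 and 0.0658 over all regions). With the other background set the higher count fell from 2 to 1 in Gcr2 (EMI2, adjusted p 0.0604) and rose to 2 in TEF1p-Tye7 (EMI2, adjusted p 0.00331). Merging left 0 higher in Cbf1 bHLH. The higher count in TEF1p-Tye7 gcr2D fell from 3 to 2, by EMI2, with at least 5 reads, merged, and without run 2 or run 3. In the pairs, merging left 0 lower in Tye7 against Cbf1 and 0 higher in TEF1p-Tye7 against Tye7, TEF1p-Tye7 gcr2D against TEF1p-Tye7 (HXK2, adjusted p 0.105) and Gcr1 against Gcr2, which also had 0 with at least 5 reads (EMI2, adjusted p 0.107). Widening by 200 bp made 1 higher, from 0, in Tye7 against Cbf1 (HXK2, adjusted p 0.0211), and leaving out the 10 fullest regions made 2 higher in TEF1p-Tye7 against Tye7 (EMI2, adjusted p 0.0479). With a run left out, counts ranged from 0 to 1 for Cbf1 lower, Cst6 lower, TEF1p-Tye7 against Tye7 higher and Gcr1 against Gcr2 higher, from 1 to 2 for Gcr2 higher (GLK1 lost without run 1, adjusted p 0.0955), and was 0 throughout for Cst6 higher. GLK1 in Cst6 was lost without run 3 (adjusted p 0.232).

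Depth limits the small libraries most: a count of 0 allows 0.00794% in Cst6 but 0.124% in NPAS2 bHLH, above the background share of every member. Scaling outside the 10 fullest regions moved the median region by 0.04 to 1.13 in log2 ratio against the backgrounds.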
